A study of Rattus norvegicus with 2 samples.

Results

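The circadian clock genes are a small set of transcription factors and their repressors that keep daily time in almost every mammalian cell. Described here are 10 of them, *Clock*, *Arntl*, *Per1*, *Per2*, *Per3*, *Cry1*, *Cry2*, *Nr1d1*, *Nr1d2* and *Dbp*, found by gene symbol, out of 32662 genes in the table. Each symbol was found once. The study compared the retina after ischemia-reperfusion, in which blood flow to the eye is stopped and then restored, with the retina after a sham procedure. Total RNA depleted of ribosomal RNA was sequenced from 2 retinal samples of Long-Evans rats 2 months of age, females per the methods of the study. Whether the retinas came from different animals is not given in the sources used here. The CTRL library came from a retina that underwent the sham procedure. For IR12, a retina was injured by ischemia and taken 12 hours after its blood flow had returned. Each condition has 1 library, so the differences given here carry no replicate error, and no test between conditions was possible.

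The clock is a feedback loop of transcription. CLOCK and BMAL1, the protein made from *Arntl*, bind E-box sequences and switch on the *Per* and *Cry* genes, whose proteins return to the nucleus and block CLOCK and BMAL1, while the nuclear receptors REV-ERB alpha and beta (*Nr1d1* and *Nr1d2*) repress *Arntl* in a coupled loop. The retina holds a clock of its own, which times dopamine release, melatonin synthesis and the shedding of photoreceptor outer segments. The transcripts of most clock genes vary with the time of day. Rats were kept on a 12-hour light-dark cycle, but the hour at which either retina was collected is not given in the sources used here, so time of day and injury cannot be told apart in any value that follows.

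Expression was given as FPKM, a fragment count scaled to the length of the transcript and the number of mapped fragments. Differences are log2 ratios of (FPKM + 1), IR12 over CTRL, so a negative value means a lower level in IR12. A fold is IR12 FPKM divided by CTRL FPKM. An FPKM of at least 1 in at least 1 library was reached by 13599 genes, and these serve as the background. Their median log2 ratio was 0.02, with quartiles of -0.32 and 0.36, and 48.2% of them were lower in IR12. The FPKM worth of 1 read, read from the lowest values in the table, put 15.4 reads per kilobase behind each unit of FPKM in CTRL and 26.3 such reads in IR12, so the same FPKM rests on 1.71 times as many reads in IR12. This factor also takes in how the FPKM were normalised between libraries, which is not given in the sources used here, and it is not the ratio of the total reads. The 95% intervals given below are exact binomial intervals for the reads of 1 kilobase of transcript. They cover counting error only, since reads are not independent molecules and animals differ.

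All 10 clock genes were expressed above an FPKM of 1 in both libraries, and their differences were small. As deposited, none was 2-fold or more higher in IR12 (0 of 10) and none was 2-fold or more lower (0 of 10), where 6.56% of the 13599 background genes were that much higher and 6.12% that much lower. These shares correspond to 0.656 and 0.612 genes in a list of 10, so 0 of 10 is near the background in both directions and is no result about these genes. At a limit of 1.5-fold, 1 member was higher (*Nr1d1*) and 1 was lower (*Per2*), beside 14.8% and 13.7% of the background genes, or 1.48 and 1.37 genes in 10, which is again near the background. With FPKM as deposited, 7 members were lower and 3 were higher in IR12, and the median of their log2 ratios was -0.24. When the FPKM columns were given equal sums (the TPM scale), 9 were higher and 1 was lower, beside 14.9% of all genes lower. The members' median was then 0.38 and that of all genes was 0.60. On that scale 1 member, *Nr1d1*, was 2-fold or more higher, with a log2 ratio of 1.25, as were 2921 of 13660 genes. As deposited, the members' median lay -0.26 log2 units from the median of all genes, and 8 of 10 members lay below that median. With small RNAs left out of the sum, or with the upper quartile used, 7 of 10 lay below it.

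**Figure D1:**
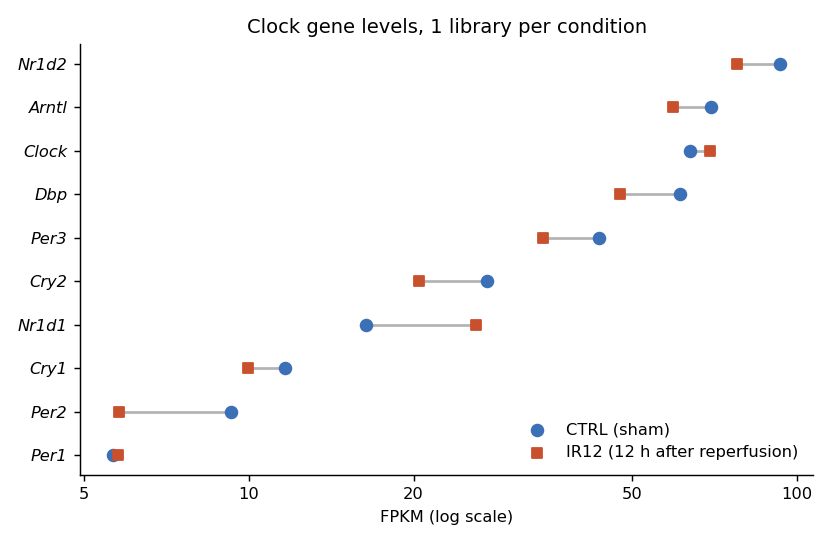
FPKM (horizontal log axis) of the 10 clock genes in the CTRL library (blue circles) and the IR12 library (orange squares), 1 library per condition, with a grey line joining the values of a gene. Levels run from 5.67 (*Per1*, CTRL) to 93.2 (*Nr1d2*, CTRL). With FPKM as deposited the square lies right of the circle for *Nr1d1*, *Clock* and, barely, *Per1*. On the TPM scale, not drawn here, IR12 is higher for every gene but *Per2*, and 14.9% of all genes are lower.

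The levels of the clock genes spanned more than the differences between the libraries. *Nr1d2* had the highest FPKM of the 10 in both libraries and *Per1* the lowest. In CTRL the order from high to low was *Nr1d2*, *Arntl*, *Clock*, *Dbp*, *Per3*, *Cry2*, *Nr1d1*, *Cry1*, *Per2* and *Per1*. In IR12, *Clock* stood above *Arntl* and *Nr1d1* above *Cry2*, and 6 of the 10 genes kept their place. In both libraries 7 members lay above the median level of the background genes, which was 12.5 FPKM in CTRL and 12.9 FPKM in IR12. *Per1*, *Per2* and *Cry1* lay below it. *Per1* and *Per2* were neighbours in IR12, with FPKM values of 5.77 and 5.79 that rest on 152 reads per kilobase each.

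Promoter windows from RefSeq (build GRCr8), each running from 250 bases before a gene's start to 50 bases after it, were searched on both strands for the letters of clock-related motifs. These were the E-box CACGTG, the E'-box CACGTT, the D-box TTATGTAA, the ROR elements TAGGTCA and TGGGTCA, and the cyclic AMP element TGACGTCA. Of all 33469 windows, 6.42% held the E-box letters, 4.83% the E'-box, 0.893% the D-box, 2.63% and 4.09% the ROR elements and 1.83% the cyclic AMP element. Windows were found for 9 of the 10 members, 11 in all, with *Arntl* listed under the symbol *Bmal1*, and *Cry1* had no entry. Matches lay in the windows of *Arntl*, *Per2*, *Cry2* and *Nr1d1*, none overlapping another. No match lay in the windows of *Clock*, *Per1*, *Per3*, *Nr1d2* and *Dbp*. The *Per1* window and 1 window each of *Clock* and *Nr1d1* lie inside the span of the gene. A match describes the letters and is no sign that a factor binds there.

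The activators of the loop are *Clock* and *Arntl*, whose proteins pair to bind E-boxes. *Clock* (ENSRNOG00000002175; rn6 chromosome 14, 34446616 to 34502218) had 63.9 FPKM in CTRL and 69.4 FPKM in IR12. Its level was thus slightly higher in IR12 as deposited, by 1.09-fold, with a log2 ratio of 0.12 and a counting interval of 0.0065 to 0.23. The *Clock* ratio was 0.76 on the TPM scale and 0.031 with small RNAs left out of the sum. *Arntl* (ENSRNOG00000014448; chromosome 1, 178039063 to 178137465) had 69.6 FPKM in CTRL and 59.5 FPKM in IR12. As deposited, the partner of *Clock* was thus lower in IR12, with a fold of 0.855, a log2 ratio of -0.22 and a counting interval of -0.34 to -0.11, although on the TPM scale its ratio was 0.41. The order of the pair was exchanged between the libraries. The ratio of *Clock* to *Arntl* FPKM within a library, which no scaling changes, was 0.918 in CTRL and 1.17 in IR12. The summed FPKM of the pair was almost the same in the libraries as deposited, at 134 and 129, while on the TPM scale its fold was 1.51.

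The *Arntl* promoter is shown because REV-ERB and ROR receptors are known to act on *Arntl* through ROR elements, and it was chosen after the match was found. The 250 bases before the start lie on the plus strand at chr1:176766078-176766327 in GRCr8. Capitals mark the ROR element letters TAGGTCA, whose first base is at -16 from the start. Spellings of the element other than TAGGTCA and TGGGTCA were not searched for and would be unmarked.
Arntl: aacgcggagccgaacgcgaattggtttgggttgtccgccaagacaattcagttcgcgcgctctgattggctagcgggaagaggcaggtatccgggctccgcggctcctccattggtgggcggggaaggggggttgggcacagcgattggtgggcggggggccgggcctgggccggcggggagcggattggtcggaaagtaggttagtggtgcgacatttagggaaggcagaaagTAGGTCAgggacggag

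The *Per* genes encode the proteins that carry the repressing complex, and *Per1* and *Per2* are also known as light-induced genes. *Per2* (ENSRNOG00000020254; chromosome 9, 98555169 to 98597359) had 9.28 FPKM in CTRL and 5.79 FPKM in IR12. This was the lowest ratio among the 10 genes, a fold of 0.624, and *Per2* was lower in IR12 on every scale tried, at -0.60 as deposited and -0.03 on the TPM scale. The counting interval of its ratio ran from -1.02 to -0.34. Among the 13599 background genes its log2 ratio stood at percentile 13.3, well inside their range. *Per3* (ENSRNOG00000018413; chromosome 5, 168086998 to 168123395), the most abundant of the *Per* genes, had 43.6 FPKM in CTRL and 34.5 FPKM in IR12. It too was lower in IR12 as deposited, with a log2 ratio of -0.33 and a counting interval of -0.49 to -0.19, but was 0.30 on the TPM scale. *Per1* (ENSRNOG00000007387; chromosome 10, 55687050 to 55695994) had 5.67 FPKM in CTRL and 5.77 FPKM in IR12. The *Per1* levels were nearly equal as deposited, with a log2 ratio of 0.02 and a counting interval of -0.36 to 0.43. From the reads of 1 kilobase, a difference in either direction was thus not detectable at this scale. On the TPM scale the *Per1* ratio was 0.57. Its sign changed with centring and with scaling without small RNAs or to the upper quartile, and its ratio stood at percentile 49.9 of the background.

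The light-induced pair of *Per* genes lay closer together in IR12 than in CTRL. *Per1* FPKM was 0.611 times that of *Per2* in CTRL and 0.996 times in IR12, a change of the ratio by 1.63-fold. *Per3* was 4.70 times *Per2* in CTRL and 5.95 times in IR12. Summed over the 3 genes, FPKM as deposited was 58.6 in CTRL and 46.0 in IR12, a fold of 0.786 that was 1.23 on the TPM scale.

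The *Per2* promoter is shown because *Per2* had the lowest ratio of the 10. Its 250 bases before the start lie on the minus strand at chr9:99496994-99497243 in GRCr8, written in the direction of the gene. The capitals TTATGTAA, with the first base at -192, are the D-box letters, and the capitals CACGTT, at -62, are the E'-box letters.
Per2: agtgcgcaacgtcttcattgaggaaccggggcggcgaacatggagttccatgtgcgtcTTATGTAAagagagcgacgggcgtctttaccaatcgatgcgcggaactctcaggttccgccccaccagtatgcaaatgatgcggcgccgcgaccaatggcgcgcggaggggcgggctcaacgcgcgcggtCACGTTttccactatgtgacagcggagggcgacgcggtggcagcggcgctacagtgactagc

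The cryptochromes are the other repressors of the loop and bind CLOCK and BMAL1 together with the PER proteins. *Cry2* (ENSRNOG00000007478; chromosome 3, 81314149 to 81344110) had 27.2 FPKM in CTRL and 20.4 FPKM in IR12. As deposited it was lower in IR12, with a fold of 0.750, a log2 ratio of -0.40 and a counting interval of -0.60 to -0.23, whereas on the TPM scale it was 0.22. *Cry1* (ENSRNOG00000006622; chromosome 7, 24534615 to 24634097) had 11.6 FPKM in CTRL and 9.98 FPKM in IR12. The log2 ratio was -0.20 and its counting interval, -0.50 to 0.07, reached 0. This interval is for the reads of 1 kilobase, and whether all reads of *Cry1* would show a difference was not tested. On the TPM scale the *Cry1* ratio was 0.39. *Cry2* was the more abundant cryptochrome in both libraries, at 2.34 times *Cry1* in CTRL and 2.05 times in IR12. Its promoter window held the E'-box letters on the reverse strand, with the first base at -212.

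The REV-ERB receptors, which repress *Arntl*, stood on opposite sides of no difference with FPKM as deposited, though both were higher in IR12 on the TPM scale. The median of all genes on that scale was 0.60, with *Nr1d1* above it and *Nr1d2* below it. *Nr1d1* (ENSRNOG00000009329; chromosome 10, 86657285 to 86690815) had 16.4 FPKM in CTRL and 26.0 FPKM in IR12. It was the member with the highest ratio, a fold of 1.59 and a log2 ratio of 0.64, and it was higher in IR12 on every scale tried, from 0.55 with small RNAs left out of the sum to 1.25 on the TPM scale. The counting interval was 0.46 to 0.88, and 252 and 685 reads per kilobase lay behind the values. The ratio stood at percentile 86.9 of the background genes. *Nr1d2* (ENSRNOG00000046912; chromosome 15, 8730871 to 8757165) had 93.2 FPKM in CTRL and 77.7 FPKM in IR12. The more abundant REV-ERB gene was thus lower in IR12 as deposited, with a fold of 0.834, a log2 ratio of -0.26 and a counting interval of -0.36 to -0.16, and its ratio on the TPM scale was 0.38.

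Within a library, *Nr1d1* FPKM was 0.176 times that of *Nr1d2* in CTRL and 0.335 times in IR12, a change of 1.91-fold that no scaling of the libraries can alter. The *Nr1d1* value needs care, because the table lists the same locus for *Nr1d1* and *Thra*, the thyroid hormone receptor alpha gene, which lies on the opposite strand with an overlapping 3' end. *Thra* had 40.6 FPKM in CTRL and 40.3 FPKM in IR12. Whether reads were counted by strand is not given in the sources used here, and without it reads of the overlap cannot be told apart. The *Thra* level was nearly equal in the libraries as deposited, with a log2 ratio of -0.01.

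Both *Nr1d1* promoter windows are shown, since *Nr1d1* had the highest ratio and is the only one of the 9 matched members with the E-box letters in a window. Both lie on the minus strand of GRCr8 and are written in the direction of the gene, window 1 at chr10:84231813-84232062 and window 2, inside the gene span, at chr10:84229455-84229704. In window 1 the capitals AACGTG are the E'-box letters of the reverse strand, with the first base at -174. In window 2 the capitals CACGTG are the E-box, with the first base at -191.
Nr1d1 window 1: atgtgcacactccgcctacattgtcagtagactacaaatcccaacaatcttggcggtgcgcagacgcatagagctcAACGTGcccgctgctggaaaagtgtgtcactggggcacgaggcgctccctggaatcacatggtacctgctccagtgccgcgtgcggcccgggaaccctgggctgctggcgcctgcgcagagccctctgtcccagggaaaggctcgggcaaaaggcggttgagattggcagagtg
Nr1d1 window 2: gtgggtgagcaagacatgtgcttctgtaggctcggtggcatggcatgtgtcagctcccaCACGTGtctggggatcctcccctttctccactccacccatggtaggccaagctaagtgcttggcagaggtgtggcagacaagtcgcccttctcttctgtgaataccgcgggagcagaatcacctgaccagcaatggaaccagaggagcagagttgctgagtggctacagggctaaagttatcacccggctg

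*Dbp* (ENSRNOG00000021027; chromosome 1, 101687855 to 101692846), an output gene of CLOCK and BMAL1 whose protein binds D-boxes, had 61.3 FPKM in CTRL and 47.5 FPKM in IR12. Its level was lower in IR12 as deposited, with a fold of 0.775, a log2 ratio of -0.36 and a counting interval of -0.49 to -0.24, and its ratio on the TPM scale was 0.27. *Nr1d1* and *Dbp* are both known as direct targets of CLOCK and BMAL1. In these libraries they stood apart from each other, with an *Nr1d1* FPKM of 0.267 times that of *Dbp* in CTRL and 0.548 times in IR12. Between the extreme members the spread was wider, since *Nr1d1* FPKM was 1.76 times that of *Per2* in CTRL and 4.49 times in IR12. Over all 10 genes the counting interval lay below 0 for 6, above 0 for 2 (*Clock* and *Nr1d1*) and reached 0 for 2 (*Per1* and *Cry1*), with FPKM as deposited. Of the 13599 background genes the same interval lay below 0 for 29.3% and above 0 for 33.3%, or 2.93 and 3.33 genes in 10. The interval narrows as the level goes up, and it was computed for these 2 libraries alone, so the members' count is a description only.

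The direction of the smaller differences rested on how the libraries were scaled. FPKM summed over all genes to different totals, and small non-coding RNAs made up 67.6% of the sum in CTRL and 46.0% in IR12. Scaling to the same sum therefore moved the IR12 values up by 0.65 log2 units relative to CTRL, and of the 13660 genes with an FPKM of at least 1 on that scale only 14.9% were then lower in IR12. Scaling to the same sum without the small RNAs moved them by -0.09, and scaling to the same upper quartile by -0.07. Each left 2 members higher (*Nr1d1* and *Clock*) and 8 lower. Of all genes with an FPKM of at least 1, 54.8% were lower with the former scaling and 53.4% with the latter. Such a factor acts on all genes of a library alike, so the order of the members and their distance from the median gene are nearly fixed by construction.

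**Figure D2:**
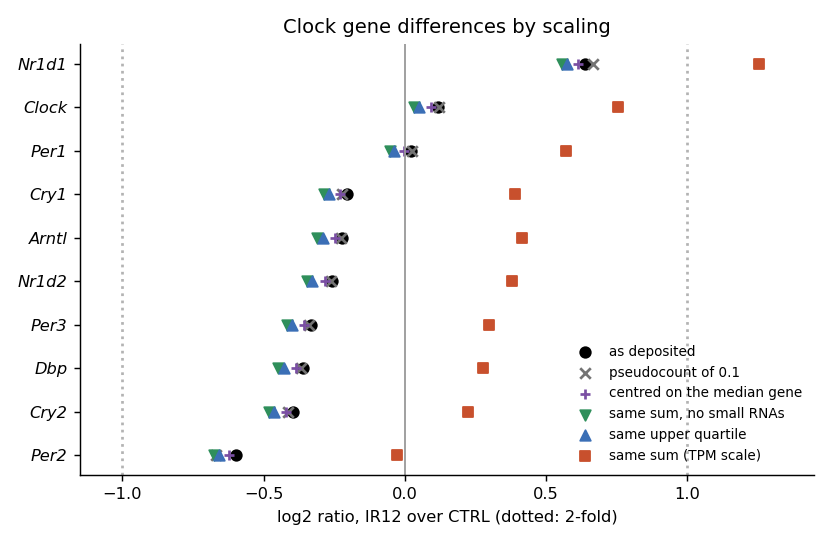
Log2 ratio, IR12 over CTRL (horizontal axis), of each clock gene under 6 settings: FPKM as deposited (black circles), a pseudocount of 0.1 (grey crosses), centring on the median gene (purple plus signs), the same sum without small RNAs (green triangles), the same upper quartile (blue triangles) and the same sum, or TPM scale (orange squares). The orange squares lie right of the others for every gene, from -0.03 for *Per2* to 1.25 for *Nr1d1*, and dotted lines mark 2-fold.

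The other genes of the loop were taken from lists of the pathway. Together with the 10 members, the lists of the positive arm, the negative arm, the nuclear receptor loop and the D-box factors hold 22 genes, of which 14 were lower and 8 higher in IR12 as deposited, where 48.2% of the background genes were lower. None of the 22 (0) passed 2-fold, beside 6.56% of the background genes that much higher and 6.12% that much lower. Their median log2 ratio was -0.24 as deposited. On the TPM scale 3 were lower and 19 higher, with a median of 0.38. Of all genes on that scale 14.9% were lower and the median was 0.60, so this count is near the background. The 12 of the 22 genes that are not among the members had a median of -0.17 as deposited, running from -0.82 to 0.85. On the TPM scale the median of these 12 was 0.31.

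In the positive arm (4 genes, median 0.04 as deposited, 0.59 on the TPM scale and of opposite sign with small RNAs left out or the upper quartile used), 2 genes were lower and 2 higher as deposited. *Npas2*, which can stand in for *Clock*, was low and nearly equal as deposited, with 2.18 FPKM in CTRL and 2.11 FPKM in IR12. *Arntl2*, a relative of *Arntl*, had 0.160 FPKM in CTRL and 1.09 FPKM in IR12. It reached an FPKM of 1 in IR12 alone, so its log2 ratio of 0.85 rests on a very low level.

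In the negative arm (9 genes, median -0.31 as deposited and 0.30 on the TPM scale), 6 genes were lower and 3 higher as deposited. *Bhlhe40* and *Bhlhe41* encode the DEC repressors, which compete for E-boxes. *Bhlhe40* had 21.5 FPKM in CTRL and 25.9 FPKM in IR12, and *Bhlhe41* had 33.0 and 22.1. Their order was thereby exchanged, with a *Bhlhe40* to *Bhlhe41* ratio of 0.651 in CTRL and 1.17 in IR12. *Ciart*, another repressor of CLOCK and BMAL1, had 3.42 FPKM in CTRL and 4.38 FPKM in IR12. *Timeless* was low in both, at 1.42 and 0.948.

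In the nuclear receptor loop (5 genes, median -0.26 as deposited and 0.38 on the TPM scale), 3 genes were lower and 2 higher as deposited. The ROR receptors activate through the same elements that REV-ERB receptors occupy. *Rorb*, the most abundant gene of the list, had 142 FPKM in CTRL and 80.2 FPKM in IR12, a log2 ratio of -0.82. *Rora* was nearly equal as deposited, at 69.3 and 71.2. *Rora* FPKM was 4.24 times that of *Nr1d1* in CTRL and 2.74 times in IR12.

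The D-box factors (4 genes, median -0.39 as deposited and 0.25 on the TPM scale) had 3 genes lower and 1 higher as deposited. The relatives of *Dbp* that activate through the same sites had log2 ratios near its -0.36, while *Hlf* was at a lower level than *Dbp*. *Tef* had 59.8 FPKM in CTRL and 44.6 FPKM in IR12, a log2 ratio of -0.42. *Hlf* had 15.1 FPKM in CTRL and 10.4 FPKM in IR12, a log2 ratio of -0.50. *Nfil3*, the repressor that competes with them, was nearly equal as deposited, at 5.28 and 5.58. The ratio of *Dbp* to *Nfil3* FPKM was 11.6 in CTRL and 8.52 in IR12.

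The kinases and ubiquitin ligases that set the stability of the PER and CRY proteins were described from 11 measured genes of 12, *Fbxl21* not being matched. As deposited, 4 were lower and 7 higher in IR12, 0 passed 2-fold, beside 6.56% of the background genes that much higher and 6.12% that much lower, and the median was 0.21, against 0.84 on the TPM scale. The most abundant was *Csnk2a1*, a catalytic subunit of casein kinase 2, with 84.9 FPKM in CTRL and 109 FPKM in IR12. The PER kinases *Csnk1d* and *Csnk1e* and the F-box gene *Fbxw11* were picked after their values were seen. *Csnk1d* had 32.4 FPKM in CTRL and 37.8 FPKM in IR12, and *Csnk1e* had 29.1 and 28.5. *Fbxw11* had the highest ratio of the list, 0.63, with 27.7 in CTRL and 43.2 in IR12.

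**Figure D3:**
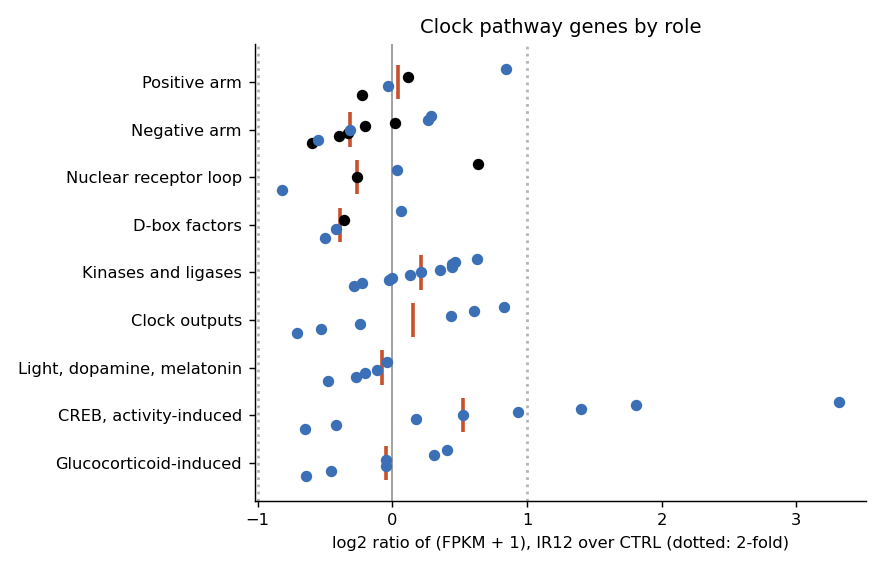
Log2 ratio of (FPKM + 1), IR12 over CTRL (horizontal axis), of the genes of 9 pathway lists (vertical axis) that reached an FPKM of 1 in at least 1 library, with FPKM as deposited. Black points are the 10 clock genes, blue points the other genes, orange bars the medians of the whole lists and dotted lines 2-fold; on the TPM scale the medians of the negative arm, nuclear receptor, D-box, light and glucocorticoid lists have the opposite sign. The points past 2-fold are *Fos*, *Npas4* and *Junb*.

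Clock outputs in the retina and elsewhere were mixed, with 3 of 7 measured genes lower, 4 higher and a median of 0.15 as deposited, which is the ratio of *Aanat*, a gene under an FPKM of 1. The median was 0.44 with a pseudocount of 0.1 and 0.30 on the TPM scale. *Nampt*, the rate-limiting enzyme of NAD salvage, had 45.0 FPKM in CTRL and 69.0 FPKM in IR12. *Noct*, a rhythmic phosphatase of NADP, had 5.56 FPKM in CTRL and 10.6 FPKM in IR12, a log2 ratio of 0.83. Both lay above the median of all genes, while *Drd4*, the photoreceptor dopamine receptor gene, lay below it at 16.8 and 9.93. The remaining outputs included *Adcy1*, at 33.3 in CTRL and 45.4 in IR12, and *Wee1*, at 10.5 and 6.95. Of the melatonin enzymes, *Aanat* stayed under an FPKM of 1, at 0.176 and 0.309, and *Asmt* was at 5.69 and 4.66.

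Of 8 genes that carry light, dopamine and melatonin signals to the retinal clock, 6 were lower as deposited, with a median of -0.08 as deposited and 0.10 on the TPM scale. *Opn4*, the melanopsin of light-sensitive ganglion cells, had 4.65 FPKM in CTRL and 3.07 FPKM in IR12. *Adcyap1*, the gene of the peptide PACAP in the same cells, was at 2.00 and 1.48. These are low levels, at which few reads lie behind a value. *Drd1* and *Drd2*, the dopamine receptor genes, had 37.4 and 17.3 in CTRL and 32.4 and 16.8 in IR12. *Th*, a gene of dopamine synthesis, was at 1.78 and 1.58. The levels of *Ddc* and the melatonin receptor gene *Mtnr1a* stayed far under an FPKM of 1 in both libraries, and *Mtnr1b* was listed at 0 in CTRL and at 0.0230 in IR12.

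The *Per1* promoter is known to respond to cyclic AMP signalling through CREB, so genes induced by activity and CREB were read beside it. As deposited they had 3 of 9 genes lower, 6 higher and 3 past 2-fold higher, beside 6.56% of the background genes, with a median of 0.53 that was 1.03 on the TPM scale. *Fos* had 7.40 FPKM in CTRL and 21.2 FPKM in IR12, *Junb* had 0.780 and 16.7, and *Npas4* had 0.460 and 4.12. The latter pair reached an FPKM of 1 in IR12 alone. Other members of the list went the other way as deposited, with *Egr1* at 9.58 in CTRL and 5.76 in IR12 and *Dusp1* at 22.6 and 16.6. *Crem*, which encodes both activators and the repressor ICER, was at 22.1 and 43.2, *Nr4a1* at 2.70 and 4.34 and *Arc* at 0.116 and 0.108, and *Sik1* had a log2 ratio of 0.18. *Per1* itself was nearly equal between the libraries as deposited.

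Glucocorticoid-induced genes, a list chosen because *Per1* and *Per2* are known glucocorticoid targets, had 4 of 6 genes lower and a median of -0.05 as deposited and 0.59 on the TPM scale. *Fkbp5* had 6.42 FPKM in CTRL and 8.84 FPKM in IR12. *Tsc22d3*, which encodes GILZ, had 35.7 and 22.6, from the more abundant of 2 identifiers that share the symbol. These familiar targets thus stood on opposite sides of no difference as deposited. *Sgk1* and *Klf9* were nearly equal as deposited, at 88.6 and 85.7 and at 36.3 and 35.0, while *Zbtb16* was at 1.58 and 0.878 and *Errfi1* at 10.6 and 13.4.

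Markers of several cell types moved with the condition, and in bulk RNA fewer cells of a type and less RNA per cell cannot be told apart. Both libraries carried the retinal label in their markers, with *Gnat1*, the transducin gene of rods, at 4027 FPKM in CTRL and 4237 FPKM in IR12, named after its value was seen. Of 8 rod markers, 4 were lower and 4 higher in IR12 as deposited, with log2 ratios from -0.92 to 0.92. Their median was -0.10 as deposited and 0.53 on the TPM scale. Their summed FPKM as deposited was 16550.5 in CTRL and 19064.5 in IR12, so the sum and the median differed in direction. All 5 Müller glia markers were 2-fold or more lower in IR12 as deposited, beside 6.12% of the background genes, with sums of 1043 and 201 and *Glul* the most abundant at 754 and 126. Leukocyte markers were higher in 8 of 8 as deposited, though *Csf1r*, named after its value was seen, was nearly equal at 3.61 and 3.71. Of the 8, 6 were 2-fold or more higher, beside 6.56% of the background genes, with sums of 15.2 and 130, and *Lyz2* was the most abundant at 9.73 and 76.9. An FPKM of 1 was reached in IR12 alone by 6 of them, and *S100a8* was listed at 0 in CTRL. Lens markers, of which the alpha crystallin gene *Cryaa* is also known to be expressed in retinal cells, were 2-fold or more lower in 4 of 4, beside the same 6.12%, with sums of 1180 and 143 and *Cryaa* itself the most abundant at 1118 and 124.

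**Figure D4:**
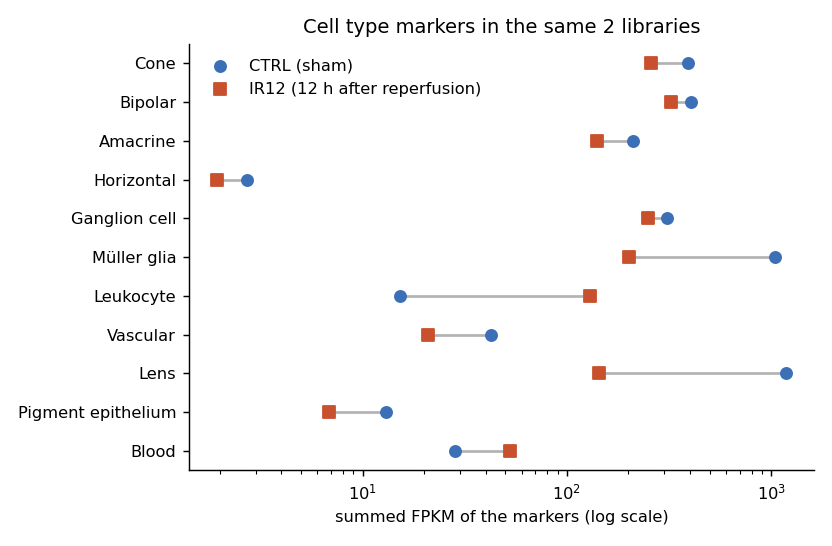
Summed FPKM (horizontal log axis) of the markers of each cell type other than rods (vertical axis) in the CTRL library (blue circles) and the IR12 library (orange squares), as deposited. The widest gaps are those of the leukocyte (15.2 and 130), lens (1180 and 143) and Müller glia (1043 and 201) markers; on the TPM scale the median log2 ratios of the bipolar, horizontal and ganglion cell markers have the opposite sign.

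Among the other neurons, all 5 cone markers were lower as deposited, with sums of 391 in CTRL and 257 in IR12 and *Gnat2* the most abundant at 179 and 138, and their median of -0.72 became -0.096 on the TPM scale. Amacrine markers were lower in 5 of 5 as deposited, with sums of 211 and 140 and *Gad1* at 107 and 82.7, and their median of -0.79 became -0.16. Bipolar markers were lower in 4 of 5 as deposited, with sums of 406 and 325 and *Trpm1* at 189 and 159, and their median of -0.43 became 0.19 on the TPM scale. Ganglion cell markers were lower in 4 of 6 as deposited, with sums of 308 and 250.2 and *Nefl* at 132 and 88.8, and their median of -0.21 became 0.30. Horizontal cell markers were lower in 2 of 3 as deposited and at low levels, with sums of 2.71 and 1.94 and *Onecut1* at 1.85 and 1.16. Their median of -0.19 became 0.07 on the TPM scale.

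The markers of non-neuronal tissue other than glia also differed. As deposited, 2 of 3 measured vascular markers were lower and 1 higher, with *Pecam1* not matched. They summed to 42.4 in CTRL and 20.9 in IR12, led by *Rgs5* at 38.6 and 17.6, and their median of -0.57 became -0.12 on the TPM scale. Pigment epithelium markers were lower in 3 of 4 and summed to 13.0 and 6.86, led by *Rpe65* at 11.1 and 4.88. Only 2 of these 4 reached an FPKM of 1 in at least 1 library, and as deposited they went opposite ways. Blood markers were split, with 2 of 4 lower and 2 higher, and summed to 28.4 and 52.6, led by *Hbb* at 20.4 and 35.1. The 2 lower blood markers stayed under an FPKM of 1 in both libraries, and the 2 higher ones did not. Clock genes are known to be expressed in most cell types, and the part of these markers' cells in the clock gene differences was not tested.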

How the data were processed

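The authors deposited FPKM for 32662 genes, 1 column for the CTRL library and 1 for IR12. The submitters' processing notes name STAR 2.5.2b, Cuffdiff 2.2.0 and the build rn6. Their roles in making the FPKM, the annotation used for them, the library normalisation and the strand setting are not given in the sources used here. The labels and the methods of the study name a kit for stranded total RNA with ribosomal RNA removal, where the series text names one for stranded mRNA. Reads were single-end and, per the study's methods, shortened. All 37 mitochondrial genes and 13562 genes in all were listed at 0 in both libraries, so a 0 may be a missing estimate. Starts in the table are counted from 0, so 1 was added to each.

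Differences were computed as the log2 ratio of FPKM plus a pseudocount of 1, and counts of genes past a fold of 2 used the same scale. Genes of lower FPKM have understated ratios on it. The background was all genes with an FPKM of at least 1 in at least 1 library. The reads behind an FPKM were taken from the lowest FPKM shared by at least 3 genes of the same listed span between 900 and 1000 bp, accepted within 0.5% of a common line, in 4 spans of CTRL and 13 of IR12. This step was chosen after the data were seen. Reads per kilobase from it gave exact binomial (Clopper-Pearson) 95% intervals of the log2 ratio without a pseudocount, for 1 kilobase, since transcript lengths were not used here.

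All 10 members are named. Of a pathway list with at most 10 measured genes any gene may be named, and of a longer list those past 2-fold and the most abundant. Of cell markers the sum, the most abundant gene and markers at 0 are given, except that for rods *Gnat1* stands in place of the most abundant gene. Some values of the lists are not reported here. The pathway lists are the positive and negative arms, nuclear receptor loop, D-box factors, kinases and ligases, outputs, light and dopamine or melatonin signals, CREB and activity, and glucocorticoid genes. Promoters were to be shown for the members with the highest and lowest ratio and those with CACGTG. Members and lists were chosen with earlier results of these data known. *Ccrn4l* is an older symbol of *Noct* and was not counted again. Small non-coding RNAs were 4421 genes recognised by symbol. The procedures were tested on simulated data. Alternatives were another pseudocount, minimum, fold and scaling. Computation used scipy 1.17.1, pandas 2.3.3 and numpy 2.4.6 under Python 3.11.15, and figures were drawn with matplotlib 3.10.9.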

Additional observations from a re-analysis of the deposited data

How the results depend on the processing

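Of 193 alternative values for 36 results, 145 kept their sign and stayed near the value given, 27 moved further and 21 changed sign. Near means within the counting interval for a clock gene, within 0.2 for a median and within 1.5 times for a count. At a fold of 1.5, 2007 of all genes were higher and 1861 lower, with 1 clock gene each way. On the TPM scale these were 2921 and 449 genes past 2-fold, with 1 clock gene higher. There *Nr1d1* was 1.25, *Clock* 0.76, *Per1* 0.57 and *Per2* -0.028, the clock genes' median was 0.38, and the ratios of *Arntl* (0.41), *Cry1* (0.39), *Cry2* (0.22), *Dbp* (0.27), *Nr1d2* (0.38) and *Per3* (0.30) were above 0. So were the medians of the bipolar (0.19), D-box (0.25), ganglion cell (0.30), glucocorticoid (0.59), horizontal (0.074), negative arm (0.30), nuclear receptor (0.38), light and dopamine (0.10) and rod (0.53) lists. All genes shifted up on this scale by its construction, to a median of 0.60. *Per1* became -0.0037 with centring, -0.054 without small RNAs and -0.037 with the upper quartile. The positive arm median became -0.032 and -0.016 with the latter scalings. The pseudocount of 0.1 changed no sign but moved the medians of the leukocyte (2.92), lens (-2.95), pigment epithelium (-0.76), vascular (-0.79), horizontal (-0.40) and clock output (0.44) lists. With a minimum FPKM of 5, counts past 2-fold stayed within 1.5 times. With no minimum they are fixed, since a gene under an FPKM of 1 cannot pass 2-fold with a pseudocount of 1. Leaving out *Nr1d1*, added after seeing the data because of *Thra*, left the clock genes' median below 0. No library could be left out, as each condition has 1. No paired analysis was possible because each condition has 1 library. The counting intervals of *Per1* and *Cry1*, taken for the reads of 1 kilobase, reach 0 as deposited. No interval uses the length of the transcript or covers the difference between animals or the hour of collection.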
